A study of Homo sapiens with 6 samples.

Results

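The insulin-like growth factor (IGF) system was read in HEK293 cells through 10 genes: the binding proteins IGFBP2, IGFBP3, IGFBP4, IGFBP5 and IGFBP6, the growth factor IGF2, the receptors IGF1R and INSR, and the adaptors IRS1 and IRS2. They are 10 of the 63140 genes listed in the count table and were found by their symbols. The set was chosen by gene family with the treatment comparison already known, and it is headed by IGFBP5 because of its lower level under treatment. The differences between treated and control cells given for these 10 genes are therefore a description, and no p-value is given for them. HEK293 is an established human line derived from embryonic kidney, grown here in medium with serum. The cells were confluent when treated. There were 3 cultures kept for 24 h in 100 nM GSK-A1, and 3 DMSO cultures served as controls. GSK-A1 is an inhibitor of PI4KA, a lipid kinase that supplies phosphoinositides to the plasma membrane. All 6 libraries carry the same batch label. The labels call the libraries biological replicates but name no culture or day, so errors measure the spread between these libraries in 1 cell line.

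IGF2 and IGF1 act by binding IGF1R and, for IGF2, also 1 form of INSR, both of which are tyrosine kinases at the cell surface. The activated receptors phosphorylate the IRS adaptors, which recruit PI3-kinase and so feed the AKT and mTOR kinases. Binding proteins are secreted, hold IGFs outside the cell and release them when proteases cut them. IGFBP5 binds IGFs tightly and also attaches to the extracellular matrix.

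Libraries held 33040178 to 47777233 counts. GSK-A1 replicate 2 stood apart: the chi-square statistic per gene was 10.98 and 15.5 against its 2 fellow replicates, and 1.84 to 3.14 among the other pairs of the same group. Of 12 markers of HEK293 and embryonic kidney cells, 9 averaged at least 1 CPM (counts scaled to the library's effective total), with PAX8, EPCAM and NEFM below it. Their summed level was 2173 to 2248 CPM with DMSO and 2318 to 2520 CPM with GSK-A1. None of 17 markers of blood, endothelial, stromal, liver and muscle cells averaged 1 CPM, and COL1A2 and HBB were at 0 in every library. The summed level of those 17 was 1.61 to 1.65 CPM with DMSO and 1.14 to 1.53 CPM with GSK-A1. Both sums lay apart between the groups, and their part in the values below was not tested. The 17 markers did not all move with their sum. DES, the highest of them, stood at 0.51 to 0.54 CPM with DMSO and 0.56 to 0.78 CPM with GSK-A1.

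Counts were compared with edgeR over all genes, and a gene was called where its p-value, adjusted over every gene tested, was under 0.05. Of the 10 genes, 7 passed the filter on low counts. IGFBP5 was called lower with GSK-A1, and IGF1R, INSR and IRS2 were called higher. IGFBP2, IGF2 and IRS1 were not called. Of all 16754 genes tested, 22.9% were called, 12.0% higher and 10.9% lower. Higher genes were 52.3% of these calls, and 33.3% of the calls under upper-quartile factors. Because the set was proposed with this comparison known, nothing is read from 4 calls in 7. The groups did not overlap in the 4 called genes, and they did not overlap in 40.5% of all genes tested. The median log2 fold change of the 7 genes was 0.16, against -0.01 over all genes tested.

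**Figure D1:**
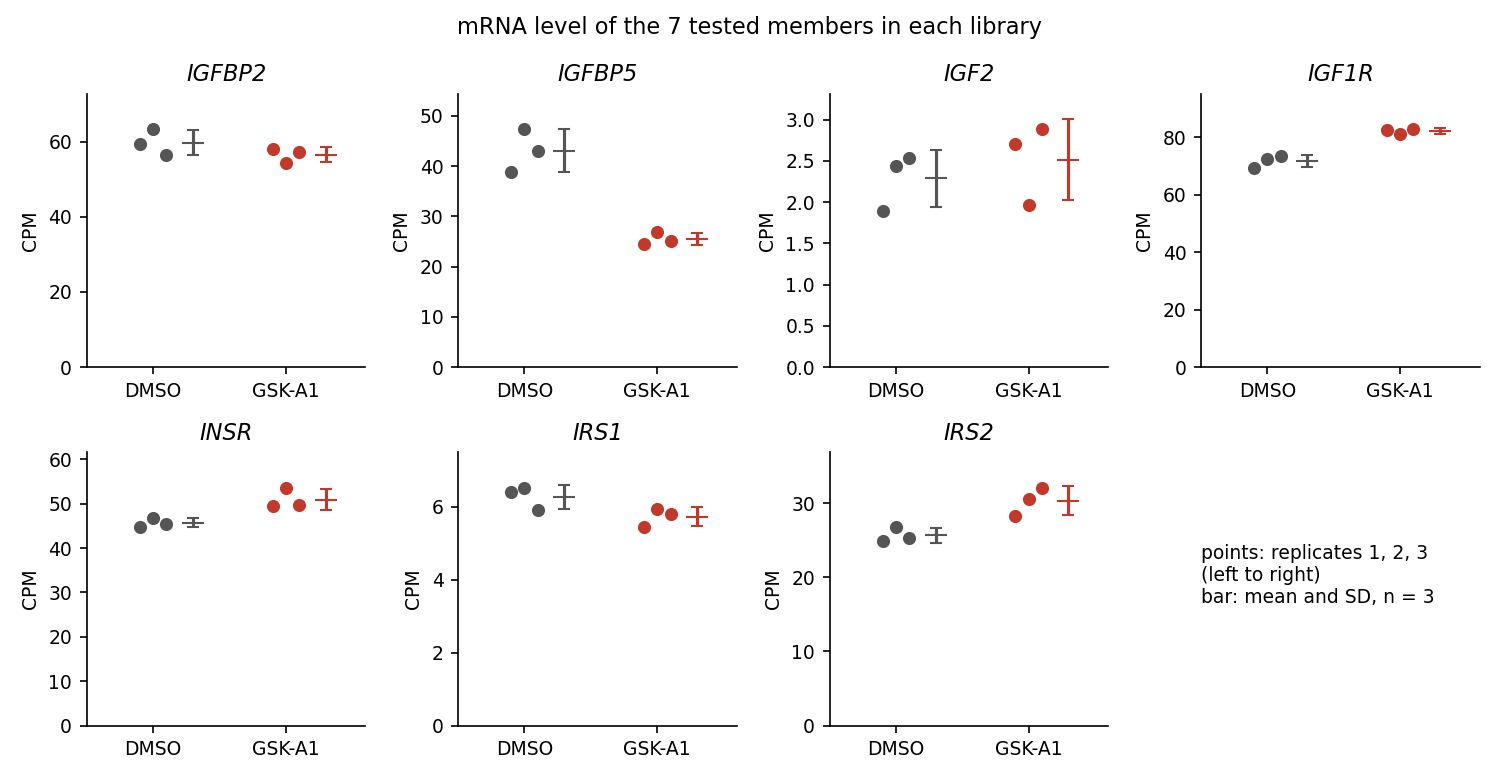
CPM (vertical axes from 0) of the 7 tested genes in each DMSO (grey) and GSK-A1 (red) library. Points are replicates 1, 2 and 3, and bars beside them are the mean and SD of n = 3. All IGFBP5 points with GSK-A1 lie at 24.5 to 26.8 CPM, below all DMSO points at 38.8 to 47.4 CPM.

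IGFBP5 (ENSG00000115461) lies on the minus strand of chromosome 2, from 216672105 to 216695525 in GRCh38. Its level was 38.8, 47.4 and 42.9 CPM in DMSO replicates 1 to 3, from 1861, 2154 and 1423 counts. With GSK-A1 it was 24.5, 26.8 and 25.1 CPM, from 1143, 915 and 903 counts. Every treated library was below every control library, and the controls were more spread than the treated cultures. The means were 43.0 ± 4.3 and 25.5 ± 1.2 CPM (SD, n = 3), so IGFBP5 fell by 40.9%, a log2 fold change of -0.76 ± 0.07 (SE). In bulk RNA, fewer expressing cells and less RNA per cell cannot be told apart. Leaving out a library moved the value most among the DMSO libraries: the log2 fold change was -0.83 without DMSO replicate 1 and -0.68 without DMSO replicate 2. It was called in all 14 other settings tried. Among the 1828 genes called lower, IGFBP5 was number 133 by size of change. Of the 8120 tested genes with a mean of at least 20 CPM, 855 were called lower, and IGFBP5 had the largest fall among these. The 20 CPM cut was not fixed beforehand. IGFBP5 heads the set because of this same fall, so both ranks are a description and nothing is read from them. An RNA on the opposite strand, AC007563.2, covered 4.63% of its exonic length, and the strand setting of the counting is not given in the sources used here.

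The sequence around the IGFBP5 start site is shown beside those of the 3 genes called higher, since these are the members that moved. They are RefSeq windows of build GRCh38.p14, from 250 bases before to 50 bases after each annotated start, read 5′ to 3′ on the gene's own strand. Capitals mark matches, on either strand, to GGGCGG (the GC box of SP and KLF factors) and to GCCNNNGGC (the AP-2 motif). The windows are chr2:216695500-216695799 (minus) for IGFBP5, chr15:98648289-98648588 (plus) for IGF1R, chr19:7294365-7294664 (minus) for INSR and chr13:109786534-109786833 (minus) for IRS2. RefSeq and GENCODE 29 differ on the INSR start: the RefSeq window lies wholly upstream of the GENCODE gene, which ends at 7294034.
IGFBP5: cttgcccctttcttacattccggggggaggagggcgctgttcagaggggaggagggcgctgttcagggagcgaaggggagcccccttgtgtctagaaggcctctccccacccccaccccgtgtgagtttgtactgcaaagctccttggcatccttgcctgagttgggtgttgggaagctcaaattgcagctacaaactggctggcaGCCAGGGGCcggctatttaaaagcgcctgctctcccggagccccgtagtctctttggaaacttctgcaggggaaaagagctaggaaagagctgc
IGF1R: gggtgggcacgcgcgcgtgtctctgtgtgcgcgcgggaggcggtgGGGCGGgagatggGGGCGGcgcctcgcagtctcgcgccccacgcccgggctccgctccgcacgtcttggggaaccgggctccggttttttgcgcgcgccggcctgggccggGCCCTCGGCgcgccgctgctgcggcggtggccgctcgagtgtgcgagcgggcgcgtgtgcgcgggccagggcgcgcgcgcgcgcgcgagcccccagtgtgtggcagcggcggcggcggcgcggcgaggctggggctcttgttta
INSR: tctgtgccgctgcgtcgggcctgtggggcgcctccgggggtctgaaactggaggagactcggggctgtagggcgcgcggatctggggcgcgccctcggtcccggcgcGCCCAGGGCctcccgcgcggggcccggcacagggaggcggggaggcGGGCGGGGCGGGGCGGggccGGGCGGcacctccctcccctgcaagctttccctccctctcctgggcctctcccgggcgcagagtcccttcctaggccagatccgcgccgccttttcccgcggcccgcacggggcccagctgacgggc
IRS2: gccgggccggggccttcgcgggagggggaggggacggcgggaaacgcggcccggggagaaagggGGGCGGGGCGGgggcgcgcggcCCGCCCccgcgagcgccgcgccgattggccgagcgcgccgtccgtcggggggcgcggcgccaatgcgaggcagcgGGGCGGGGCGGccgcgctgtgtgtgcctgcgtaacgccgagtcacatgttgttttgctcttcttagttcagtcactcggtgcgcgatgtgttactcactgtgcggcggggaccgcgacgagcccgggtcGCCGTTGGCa

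The windows differ in base composition. IGFBP5 had 59% G and C, against 79.7% in IGF1R, 78.3% in INSR and 75.7% in IRS2. Among the members not called or not tested, IRS1 had 79.3%, IGFBP3 74.7%, IGFBP4 74% and IGFBP6 61.7%. The 3 windows of IGFBP2 had 55.3%, 70% and 56.7%. GGGCGG occurred 2 times in the IGF1R window, 4 times in that of INSR and 5 times in that of IRS2, as well as 4 times in that of IRS1, some of them in overlapping runs, and nowhere in the IGFBP5 window. Of the 10 genes, 9 had a RefSeq window, all but IGF2, and 8 of these 9 held GGGCGG. Over all 34943 windows of that length, 44.9% held it. GCCNNNGGC occurred 1 time in each of the 4 windows and in 6 of the 9 genes, against 23.2% of all windows. TATAAA (core promoter box) was found in IGFBP4 alone and TGTTTAC (FOXO) in IGFBP6 alone, against 11.6% and 3.42% of all windows. Only exact letters were counted, so variants, such as TATTTAAA in the IGFBP5 window, are left out. TGACTCA (AP-1) and GCGTGGGCG (EGR) were in none of the 9, against 4.96% and 0.796%. Members are counted as genes with a match in any of their windows, while the shares over all are of single windows. Those shares are not matched for G and C content. A match is a description of letters and not evidence of a bound site.

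IGFBP2 (ENSG00000115457), the neighbour of IGFBP5, is on the plus strand of chromosome 2 from 216632828 to 216664436, so that the 3′ ends of both genes face each other across 7669 bases. IGFBP2 encodes another secreted IGF carrier. It stood at 59.5, 63.3 and 56.5 CPM with DMSO and at 58.0, 54.4 and 57.2 CPM with GSK-A1. The groups overlapped, with means of 59.8 ± 3.4 and 56.6 ± 1.9 CPM (SD, n = 3). The log2 fold change was -0.08 ± 0.05 (SE) and was not called in any setting. A window of 1 Mb on each side of IGFBP5, set after the data were seen, held 10 tested genes, all on the IGFBP2 side. Of these 10, 3 were called, all lower, against 10.9% called lower over all genes tested. They are named after their values were seen, and nothing is read from so small a count. LINC01963, a long noncoding RNA, went from a mean of 5.13 CPM to one of 3.05 CPM, or -0.78 ± 0.13 on the log2 scale (edgeR adjusted p = 4.83e-04). The unnamed gene ENSG00000279348 beside it went from 4.26 to 2.35 CPM (-0.87 ± 0.13, edgeR adjusted p = 1.77e-04). SMARCAL1, which encodes a DNA-annealing helicase, changed by -0.18 ± 0.05 (edgeR adjusted p = 0.0173). The abundant genes XRCC5 (-0.06 ± 0.04) and RPL37A (-0.09 ± 0.04) were not called.

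The other binding proteins were near the limit of detection. IGFBP3, the main IGF carrier of serum, had 11, 7 and 8 counts with DMSO and 14, 7 and 8 counts with GSK-A1. IGFBP4, the classical substrate of the protease PAPPA, had 0, 1 and 2 counts with DMSO and 0, 0 and 2 counts with GSK-A1. IGFBP6, which prefers IGF2, had 4, 3 and 2 counts with DMSO and 2, 2 and 0 counts with GSK-A1. These 3 genes did not pass the filter, and with no filter none was called. Outside the set, IGFBP1 had no count in any library and IGFBP7 had 1 count in each of 2 libraries. A count of 0 allows up to 3 counts, which is 0.0626 CPM in the deepest library and 0.0905 CPM in the shallowest. Only for IGFBP6 did the groups not overlap in CPM. Its counts, 2 to 4 with DMSO and 0 to 2 with GSK-A1, met at 2. No difference between the groups was detectable for these 3 genes at this depth.

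To compare genes with each other, CPM was divided by the length of the merged exons in kilobases (RPKM). On that scale the order with DMSO was IGFBP2 (12.5 ± 0.7 RPKM), IGFBP5 (6.68 ± 0.66), IGF1R (5.15 ± 0.16), INSR (4.37 ± 0.10) and IRS2 (3.15 ± 0.12), all SD, n = 3. IRS1 (0.631 ± 0.033) and IGF2 (0.328 ± 0.049) were lower. IGFBP6 (0.0519 ± 0.0089) and IGFBP3 (0.0456 ± 0.0104) did not differ beyond their spread, and with the length of the longest transcript in its place they stood at 0.0594 and 0.0863, in the reverse order. IGFBP4 was lowest at 0.0125 ± 0.0139. With GSK-A1, IGFBP5 stood at 3.95 ± 0.19, below IGF1R (5.89 ± 0.07) and INSR (4.87 ± 0.22). Its libraries then overlapped those of IRS2 (3.72 ± 0.24). IGFBP5 was thus next below IGFBP2 with DMSO, and with GSK-A1 both receptors also stood above it.

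**Figure D2:**
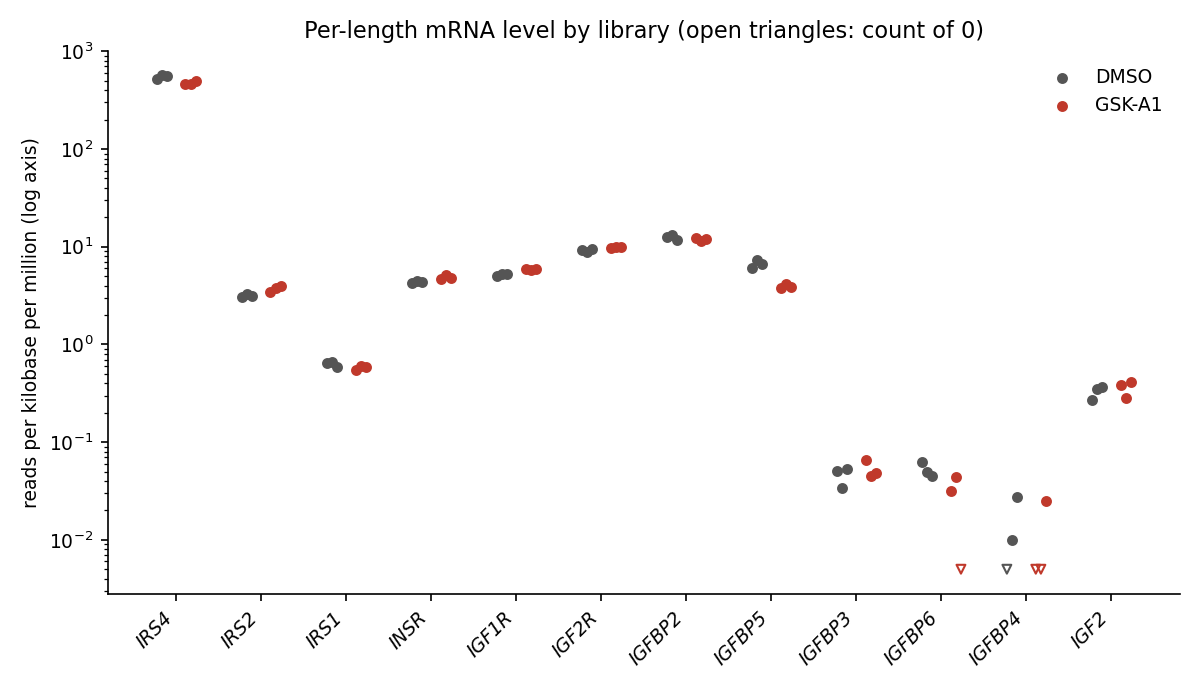
RPKM over merged exons (log axis) in each DMSO (grey) and GSK-A1 (red) library, for the 10 genes and for IRS4 and IGF2R. Open triangles are libraries with a count of 0, drawn below the scale. IRS4 lies far above every other gene, and IGFBP3, IGFBP4 and IGFBP6 lie at the bottom.

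IGFBP2 and IGFBP5 together made up 99.3% to 99.6% of the summed per-length level of IGFBP1 to IGFBP7 in every library. This sum leaves out IGFBPL1, another gene listed with the binding proteins. IGFBPL1 stood at 20.6 ± 1.2 RPKM with DMSO and 21.9 ± 1.7 RPKM with GSK-A1 (SD, n = 3), above IGFBP2. The IGFBP5 share was 32.3%, 35.5% and 35.8% in DMSO replicates 1 to 3, and 23.7%, 26.6% and 24.4% in GSK-A1 replicates 1 to 3. These ranges did not overlap. The mean IGFBP5 share went from 34.5% ± 1.9 to 24.9% ± 1.5 and that of IGFBP2 from 64.9% ± 1.9 to 74.6% ± 1.5 (SD, n = 3). The summed level of the family went from 19.3 ± 1.2 to 15.9 ± 0.2 RPKM, a log2 ratio of -0.28. Since the IGFBP5 count enters each share, the IGFBP2 share is higher without a higher IGFBP2 level.

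**Figure D3:**
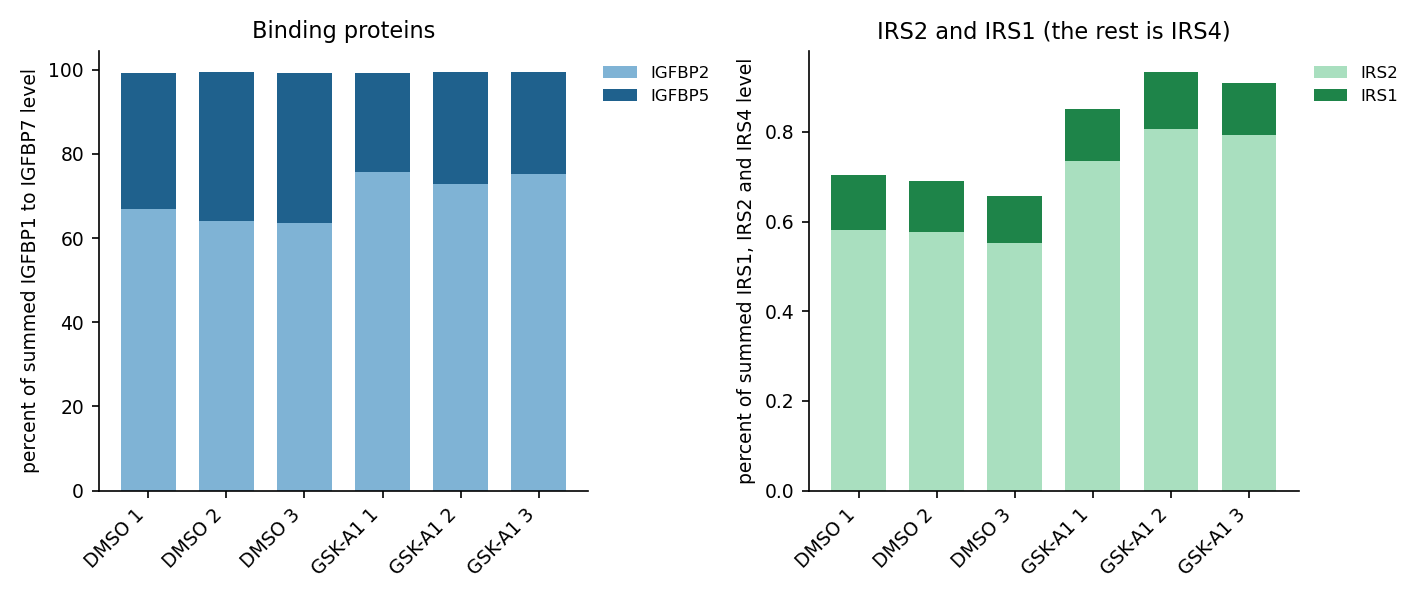
Left, IGFBP2 (light) and IGFBP5 (dark) as a percent of the summed per-length level of IGFBP1 to IGFBP7 in each library. Right, IRS2 (light) and IRS1 (dark) as a percent of the summed level of IRS1, IRS2 and IRS4. The IGFBP5 part is 32.3% to 35.8% with DMSO and 23.7% to 26.6% with GSK-A1, and the IRS2 part is below 0.6% with DMSO and above 0.7% with GSK-A1. Each share also moves with the other genes of its sum.

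The growth factor IGF2 (ENSG00000167244) had few reads. It stood at 1.90, 2.44 and 2.53 CPM with DMSO and at 2.7, 1.96 and 2.89 CPM with GSK-A1. The groups overlapped, and GSK-A1 replicate 2 was the lowest treated library. The log2 fold change was 0.17 ± 0.16 (SE), and it was 0.30 without GSK-A1 replicate 2 and 0.03 without DMSO replicate 1, with no call in either. In GENCODE 29, other genes on the same strand covered 73.7% of the IGF2 exonic length. They include a second IGF2 entry, ENSG00000284779, which was listed at 0 in every library, so the level given for IGF2 may leave out reads that both entries share. Insulin itself (INS) had no count in any library. IGF1, the other ligand, had 2, 3 and 4 counts with DMSO and 12, 12 and 8 counts with GSK-A1, under the filter. With no filter IGF1 was called higher (edgeR adjusted p = 0.00355, log2 fold change 1.91 ± 0.52), at levels under 0.4 CPM. HELLPAR on the opposite strand covered 82.4% of the IGF1 exonic length, so without a known strand setting these reads cannot be assigned to either gene.

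IGF1R (ENSG00000140443), the main receptor for both IGFs, lies on the plus strand of chromosome 15 from 98648539 to 98964530. Its level was 69.3, 72.6 and 73.4 CPM with DMSO and 82.5, 81.0 and 82.8 CPM with GSK-A1. Every treated library was above every control library. The means were 71.8 ± 2.2 and 82.1 ± 1.0 CPM (SD, n = 3), a rise of 14.5% and a log2 fold change of 0.20 ± 0.04 (SE). It was called in all 14 other settings.

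INSR (ENSG00000171105), the insulin receptor, lies on the minus strand of chromosome 19 from 7112255 to 7294034. It stood at 44.8, 46.8 and 45.5 CPM with DMSO and at 49.4, 53.6 and 49.8 CPM with GSK-A1. The groups did not overlap, and GSK-A1 replicate 2 was the highest library. The means were 45.7 ± 1.0 and 50.9 ± 2.3 CPM (SD, n = 3), a rise of 11.4% and a log2 fold change of 0.16 ± 0.05 (SE). This call was not stable. It was lost under upper-quartile factors (log2 fold change 0.11) and without DMSO replicate 1 (0.14), 2 (0.17) or 3 (0.15). Without GSK-A1 replicate 2 it was kept, at 0.12. INSR made up 45.9% ± 0.6 of the summed per-length level of both receptors in control cells and 45.3% ± 1.4 in treated cells (SD, n = 3), ranges that overlapped. The level of both together went from 9.52 ± 0.23 to 10.76 ± 0.16 RPKM. IGF2R, which takes IGF2 to lysosomes and does not signal through IRS adaptors, stood at 164 ± 6 and 177 ± 3 CPM. Its log2 fold change of 0.11 ± 0.04 was not called (edgeR adjusted p = 0.0506), although its groups did not overlap. In 6 other settings IGF2R was called higher, among them the fit without GSK-A1 replicate 2 (0.10 ± 0.03). Over all settings the IGF2R adjusted p lay between 0.00966 and 0.246.

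Of the adaptors, IRS2 (ENSG00000185950, minus strand of chromosome 13 from 109752698 to 109786568) was called higher. Its level was 24.9, 26.8 and 25.3 CPM with DMSO and 28.2, 30.6 and 32.1 CPM with GSK-A1. The groups did not overlap, but the highest control and the lowest treated library lay close together. The means were 25.6 ± 1.0 and 30.3 ± 1.9 CPM (SD, n = 3), a rise of 17.9% and a log2 fold change of 0.24 ± 0.06 (SE). The call was lost without DMSO replicate 1, where the log2 fold change was 0.21. IRS1 (ENSG00000169047), on the minus strand of chromosome 2 from 226731317 to 226799759, stood at 6.40, 6.53 and 5.91 CPM with DMSO and at 5.45, 5.95 and 5.80 CPM with GSK-A1. These groups overlapped, and its log2 fold change of -0.14 ± 0.09 was not called in any setting.

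The adaptor most abundant in these cells was neither of these. IRS4, which is outside the set, stood at 2052, 2227 and 2196 CPM with DMSO and at 1838, 1815 and 1935 CPM with GSK-A1. It fell by 0.21 ± 0.04 on the log2 scale (edgeR adjusted p = 5.46e-04), with no overlap between the groups and a call in all 14 other settings. An antisense RNA overlaps 9.06% of the IRS4 exons by length. Per length, IRS4 made up 99.3% ± 0.02 (SD, n = 3) of the IRS1, IRS2 and IRS4 level in control cells and 99.1% ± 0.04 in treated cells. The IRS2 share was 0.570% ± 0.016 and 0.778% ± 0.038. Since IRS4 makes up nearly all of the sum, this share holds the fall of IRS4 as well as the 17.9% rise of IRS2. The summed level of the 3 adaptors went from 553 ± 24 to 479 ± 16 RPKM.

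**Figure D4:**
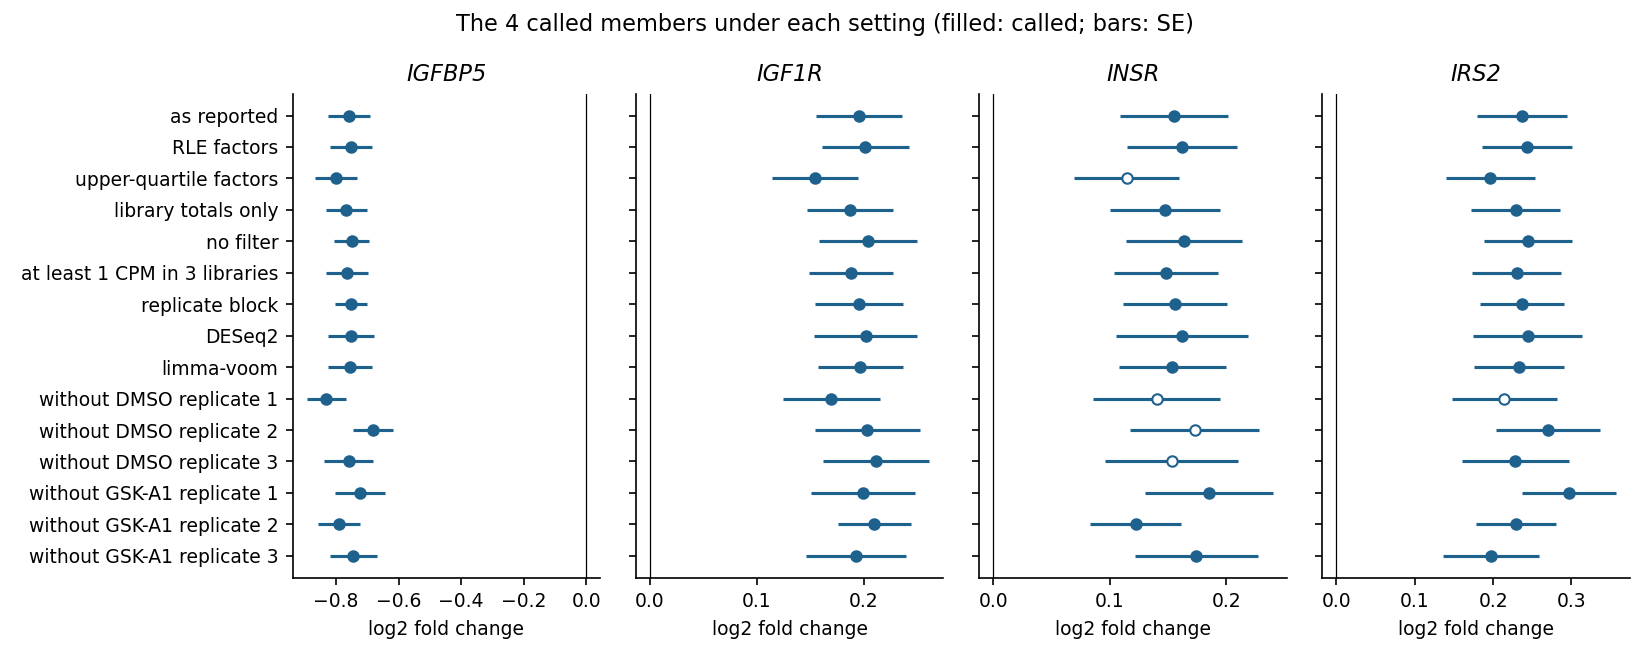
Log2 fold change with its SE (horizontal axes; each panel has its own scale, and 0 is the vertical line) of the 4 called genes as reported and under 14 other settings. Filled points were called at an adjusted p under 0.05. IGFBP5 and IGF1R are filled throughout, INSR is open in 4 settings and IRS2 in 1.

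How far a gene varied among replicates differed within the set. The SD of log2 CPM in the DMSO group was 0.032 for INSR, 0.044 for IGF1R, 0.055 for IRS2, 0.143 for IGFBP5 and 0.222 for IGF2. In the GSK-A1 group it was 0.065, 0.017, 0.093, 0.067 and 0.291 for the same genes. GSK-A1 replicate 2 was the library farthest from its group for IGF2 (-0.33) and INSR (0.08), while for IGFBP5 it was DMSO replicate 1 (-0.14) and for IRS2 GSK-A1 replicate 1 (-0.10).

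Genes with the pattern most like IGFBP5 were sought among 10952 tested genes with a mean of at least 5 CPM, by the Pearson correlation of log2 CPM over the 6 libraries. The 5 closest were LAMA4 (r = 0.998), COL18A1 (0.997), SF1 (0.995), NREP (0.995) and BCL11B (0.995). LAMA4 encodes a laminin chain and went from 95.5 ± 3.3 to 75.8 ± 1.2 CPM (SD, n = 3). COL18A1 encodes a collagen chain and went from 85.4 ± 2.4 to 74.9 ± 1.0 CPM. SF1 is a splicing factor, NREP a small neuronal protein and BCL11B a zinc-finger transcription factor. Their log2 fold changes of -0.33, -0.19, -0.09, -0.34 and -0.41 were all smaller in size than that of IGFBP5. The 6 points fall into the 2 treatment groups, and r includes the difference between them.

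Other genes of the system were taken from 8 lists with 77 genes, of which 69 passed the filter. Of these 69, 25 were called, 17 higher and 8 lower, or 36.2% against the 22.9% of all genes tested. The 2 shares are not matched for expression level. With at least 1 CPM required in 3 libraries, 25 of 65 were called (38.5%), against 27.7% of all genes tested in that fit. Without DMSO replicate 3, 16 of 71 were called (22.5%), against 12.7% of all genes tested in that fit. The median log2 fold change was 0.05, against -0.01 over all genes tested. The lists were written with earlier results of these data known.

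**Figure D5:**
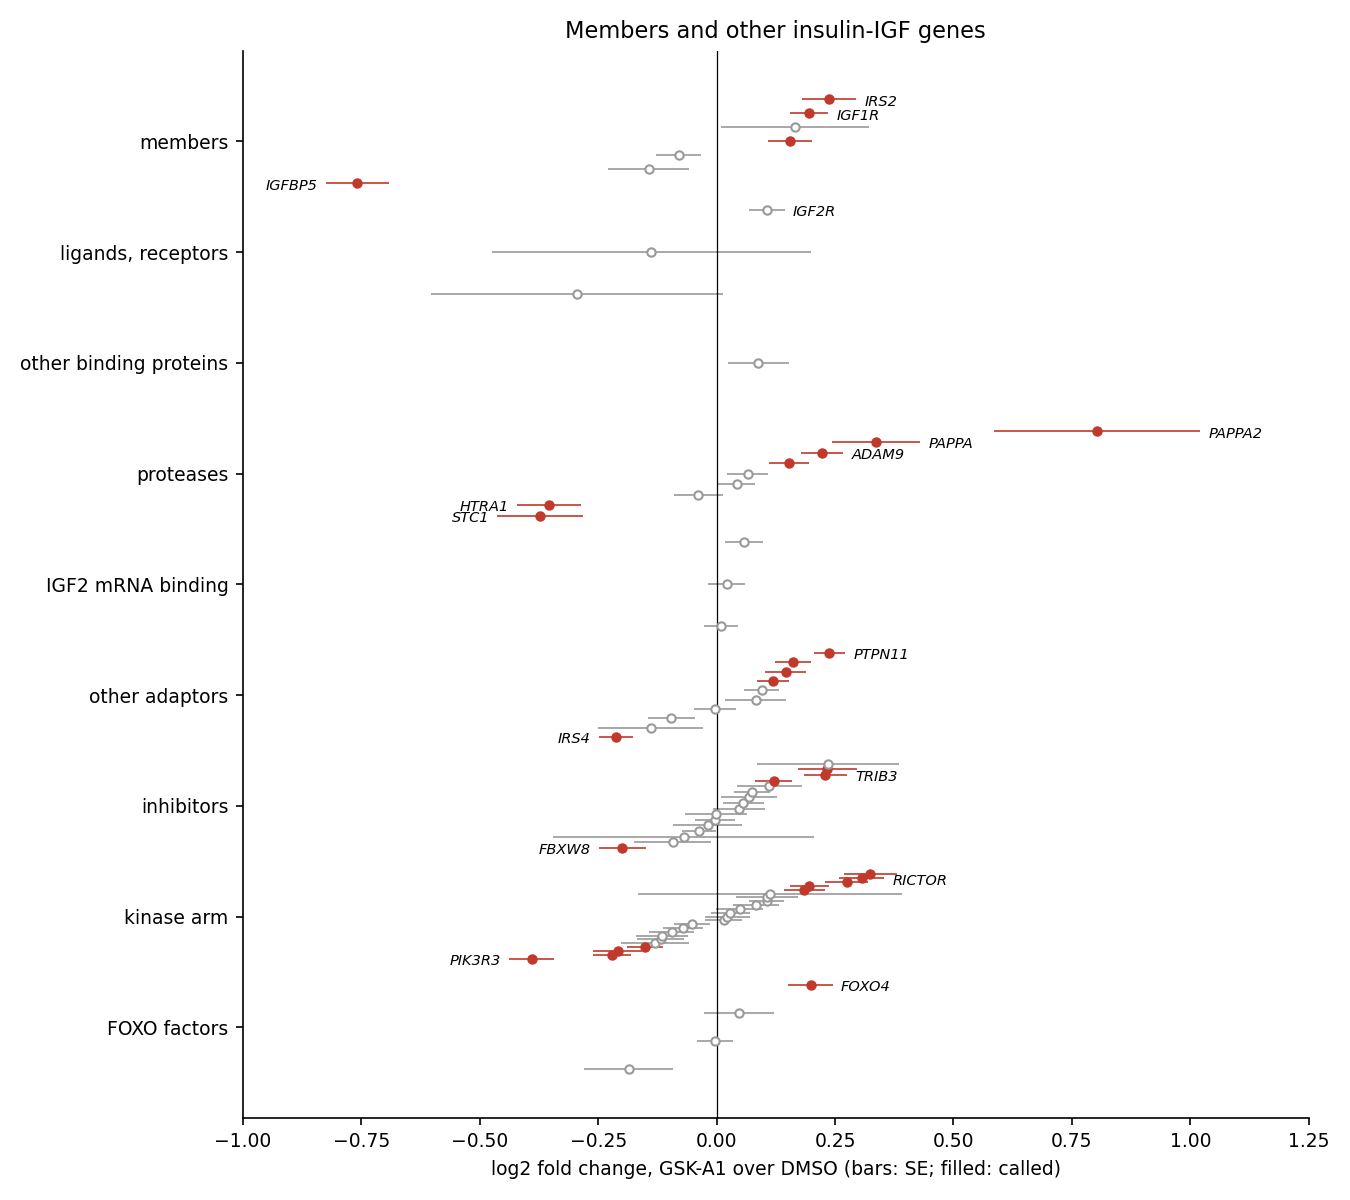
Log2 fold change of GSK-A1 over DMSO with its SE (horizontal axis) for each tested gene, grouped by list. Filled red points were called at an adjusted p under 0.05 and open grey points were not. IGFBP5 has the lowest value of all genes shown and PAPPA2 the highest.

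Proteases that cut binding proteins or insulin, with their inhibitors, had 9 of 11 members tested and 6 called, 4 higher and 2 lower (median log2 fold change 0.07). These 6 were 66.7% of the tested list, against 22.9% called over all genes tested. Shares of lists this small are a description. HTRA1, a secreted serine protease able to cut IGFBP5, fell from 20.7 ± 1.2 to 16.2 ± 1.3 CPM, or -0.35 ± 0.07 as log2 (edgeR adjusted p = 0.00147). ADAM9, a membrane metalloprotease also able to cut IGFBP5, rose from 120.5 ± 2.2 to 140.6 ± 9.5 CPM (0.22 ± 0.05, edgeR adjusted p = 0.00243). STC1, a secreted inhibitor of PAPPA, fell from 6.22 ± 0.23 to 4.78 ± 0.33 CPM (-0.37 ± 0.09, edgeR adjusted p = 0.00747). Named after their values were seen, PAPPA rose from 4.70 ± 0.44 to 5.98 ± 0.15 CPM (0.34 ± 0.09, edgeR adjusted p = 0.0159), and PAPPA2, whose substrates include IGFBP5, from 0.690 ± 0.205 to 1.20 ± 0.14 CPM (0.80 ± 0.22, edgeR adjusted p = 0.0143). PAPPA-AS1 on the opposite strand covered 21.2% of the PAPPA exonic length. The PAPPA call was lost without DMSO replicate 3 or GSK-A1 replicate 1, and the PAPPA2 call when DMSO replicate 1 or 3 or the first GSK-A1 library was left out. The adjusted p ranged up to 0.0815 for PAPPA and 0.0963 for PAPPA2. FURIN, which processes the receptor precursors, was the sixth call (0.15 ± 0.04, edgeR adjusted p = 0.0168) and was lost in 5 settings.

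Of the other adaptors, 10 of 10 were tested and 5 called (50%, against 22.9% of all genes tested), 4 higher and 1, IRS4, lower (median 0.09). PTPN11, the phosphatase SHP2 that docks on IRS proteins, rose from 361 ± 3 to 425 ± 12 CPM (0.24 ± 0.03, edgeR adjusted p = 1.24e-04). CRK, an adaptor that binds phosphorylated IRS proteins, rose by 0.16 ± 0.04 (edgeR adjusted p = 0.00637), a call lost without DMSO replicate 2 or 3. GRB2 (0.12 ± 0.03) and SOS1 (0.15 ± 0.04), which lead from the receptors to RAS, were the remaining calls, lost in 5 and 3 other settings. Of 16 inhibitors of the receptors and adaptors, all tested, 4 were called, 3 higher and 1 lower (median 0.05). That was 25%, near the 22.9% called over all genes tested, so nothing is read from this count. TRIB3, a pseudokinase that binds AKT, rose from 37.9 ± 1.0 to 44.5 ± 0.95 CPM (0.23 ± 0.05, edgeR adjusted p = 0.00188). DOK4, a docking protein of the insulin receptor, rose by 0.23 ± 0.06 (edgeR adjusted p = 0.0124). FBXW8, part of a ubiquitin ligase that marks IRS1, fell by 0.20 ± 0.05 (edgeR adjusted p = 0.00989), with 11.1% of its exonic length under genes of the opposite strand. The DOK4 and FBXW8 calls were lost without DMSO replicate 2 or 3.

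In the kinase arm 23 of 23 genes were tested and 9 called, 5 higher and 4 lower (median 0.02). These 9 were 39.1% of the list, against 22.9% called over all genes tested. PIK3R3, a regulatory subunit of PI3-kinase, fell from 53.2 ± 2.3 to 40.5 ± 1.4 CPM (-0.39 ± 0.05, edgeR adjusted p = 3.62e-05), with 17.4% of its exonic length shared with a gene on the same strand. RICTOR, the defining subunit of mTOR complex 2, rose from 41.1 ± 1.7 to 50.9 ± 1.8 CPM (0.31 ± 0.05, edgeR adjusted p = 2.96e-04). Other subunits of that complex went the other way. MLST8 was called lower (-0.22 ± 0.04, edgeR adjusted p = 8.77e-04), as was MTOR (-0.15 ± 0.04, edgeR adjusted p = 0.00955). The MTOR call was lost without DMSO replicate 1 or 3. Of the 4 FOXO factors, which AKT keeps out of the nucleus, FOXO4 was called higher (0.20 ± 0.05, edgeR adjusted p = 0.00622). A share of 25% is near the 22.9% called over all genes tested, and nothing is read from it. None of the 3 tested ligands and receptors, the 1 other tested binding protein (IGFBPL1) or the 3 tested IGF2 mRNA-binding proteins was called by edgeR. At an unadjusted p under 0.05, 1 of these 7 genes passed, IGF2R, which DESeq2 and limma-voom called.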

How the data were processed

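RNA from 3 DMSO and 3 GSK-A1 cultures was made into libraries with a stranded Illumina kit, per the labels' protocols. The deposited table holds raw counts per gene. Per the submitters' processing notes, the tools were cutadapt 5.1, STAR 2.7.11b, featureCounts, Subread 2.1.1 and DESeq2 1.38.0, with build GRCh38.p13. Annotation release and strand setting are not given in the sources used here. The 10 members and all lists were chosen with earlier results of these data known.

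Genes were filtered with filterByExpr (smallest count 10, smallest total 15), scaled by TMM and tested with the robust quasi-likelihood F test of edgeR 4.0.16 (R 4.3.3), adjusted by Benjamini-Hochberg over all genes. SE is the unshrunken log2 coefficient over the root of F. The code was tested on simulated data. Where each gene was simulated with its own estimated dispersion, more of the calls were false than the threshold states, so adjusted p-values near the threshold may be too small. Coordinates, lengths and overlaps are from GENCODE 29 (GRCh38). Likeness used log2 CPM with a prior count of 2. Named genes were the members, up to 3 called genes with the smallest p-values per list, IRS4, IGF2R, IGFBP1, IGFBP7 and the 5 genes most like IGFBP5. IGF1, INS, PAPPA, PAPPA2, FURIN, GRB2, SOS1, IGFBPL1, MTOR, MLST8 and the neighbours of IGFBP5 were named after their values were seen. A gene that the rule names in the kinase arm is not reported here. Alternatives were other library factors and filters, a replicate block, DESeq2 1.42.0, limma-voom (limma 3.58.1), a stricter threshold and fits without 1 library. Protein sequences were not analysed here. Limits given for a count of 0 cover counting error only.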

Additional observations from a re-analysis of the deposited data

How the results depend on the processing

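Of the 7 tested members, IGFBP5 and IGF1R were called in all 14 other settings, INSR in 10 and IRS2 in 13, and IGFBP2, IGF2 and IRS1 in none. No member changed sign. With 1 library left out, the members called ranged from 2 (without DMSO replicate 1) to 4, the other insulin-IGF genes called from 16 (without DMSO replicate 3) to 30, and all genes called from 2163 (without DMSO replicate 1) to 4890 (without GSK-A1 replicate 2), against 4, 25 and 3835. Without DMSO replicate 2 or 3 all calls were 2213 and 2206. At an adjusted p under 0.01 they were 1871. Upper-quartile factors moved the share of calls that were higher from 52.3% to 33.3%, and the median of all genes from -0.01 to -0.05. With the length of the longest transcript, the IGFBP5 share of the summed IGFBP1 to IGFBP7 level moved by less than 1 SD. The other settings could not have moved that share by 1 SD, so nothing is read from them. Library factors cancel in a share, and leaving out 1 of 3 libraries moves a mean by less than their SD.

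Same-numbered libraries shared little beyond their group (correlations of deviations 0.011, 0.019 and 0.032), so the numbers were not taken to pair them. With the replicate block, 4127 genes, 4 members and 29 other insulin-IGF genes were called. Each DMSO library correlated best with its own number, but only 2 of the 3 GSK-A1 libraries did. IGFBP3, IGFBP4 and IGFBP6 were limited by depth. DESeq2 gave no adjusted p for PAPPA2 and IGFLR1, among others, so it gave no call there. Of the 10 DMSO levels per length, 5 moved by more than 1 SD when the longest transcript replaced merged exons (IGFBP2, IGFBP3, IGF2, IGF1R and INSR).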
